A study of Mus musculus with 28 samples.

Results

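The genes described here are Il1rl1, which encodes the interleukin-33 receptor chain ST2, its ligand gene Il33, the interleukin-6 family cytokines Il6, Il11 and Lif, the chemokines Cxcl1, Cxcl12, Ccl2 and Ccl7, and the growth factor gene Csf1. These 10 genes of the 54429 in the count table were chosen by symbol. Il1rl1 led the choice because of its fall in normoxic osteoblast cultures. Among 13088 genes with a mean of at least 10 counts in both groups of that comparison its fall ranked 1, with the next gene at a log2 fold change of -8.31, and among all 14434 genes tested it ranked 9. Its values in those groups are therefore a description, and no p-value is given for Il1rl1 where normoxic proliferating or normoxic osteoblast libraries take part, nor for any of the 10 genes between these groups or in a difference that contains that comparison.

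RNA was sequenced from O9-1 cells, a single mouse line of cranial neural crest origin, kept proliferating or differentiated under conditions for smooth muscle, cartilage (chondrocyte) or bone (osteoblast), each at 21% O2 (normoxic, 4 libraries a group) and 0.5% O2 (hypoxic, 3 libraries a group). Proliferating cells grew in medium conditioned by STO feeder cells with 15% fetal calf serum, 25 ng/ml basic FGF and 5 ng/ml LIF protein, so the product of one of the genes described was also in their medium. Chondrocyte cultures had 3 days of osteogenic medium, followed by 7 days as micromasses with 5% serum, 0.1 µM dexamethasone, 10 ng/ml TGF-beta3 and 50 ng/ml BMP-2. Osteoblast cultures spent 10 days with 10% serum, 100 ng/ml BMP-2 and 0.1 µM dexamethasone, and smooth muscle cultures spent 3 days in 10% serum without added factors. Time, medium and culture form thus differ between the lineages and the proliferating state and cannot be told apart. The labels do not say that replicates were separate cultures, so p-values measure the spread between these libraries.

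ST2 binds IL-33 together with the accessory chain encoded by Il1rap and signals through MyD88 to NF-kB. It exists as a membrane receptor and as a shorter soluble decoy made from the same gene, and it is best known on mast cells and T cells. Interleukin-6, interleukin-11 and LIF signal through receptor complexes that share gp130, the product of Il6st. Chemokines guide migrating cells, and many of them, with Il6, are classical NF-kB targets that glucocorticoids such as dexamethasone restrain. CXCL12 is a guidance cue for cells with the receptor CXCR4, and CSF1 is the main growth factor of macrophages and osteoclasts.

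The bases just upstream of the annotated starts are shown for Il1rl1, whose levels spanned the widest range, and for the genes with a match to a motif searched, so that the sequences can be read beside the changes below. They are from RefSeq on GRCm38.p6, written 5′ to 3′ on the strand of the gene. They end at the base before the start, except that the last 11 bases for Lif, 4 for Cxcl1 and 2 for the second Il1rl1 start, which are exonic in the annotation, are left off. Motif positions are counted from the start, with those bases included. For Il1rl1 both annotated starts are shown, and for Il11 only the start whose window held a match. Capitals mark exact matches, on either strand, to the kB-type motif (GGG, any 2 bases, TTTCC), the AP-1-type motif TGANTCA, the hypoxia-type motif ACGTG and TGTTCT, a glucocorticoid receptor half-site.
Il1rl1, first start, chr1:40429320-40429569, + strand: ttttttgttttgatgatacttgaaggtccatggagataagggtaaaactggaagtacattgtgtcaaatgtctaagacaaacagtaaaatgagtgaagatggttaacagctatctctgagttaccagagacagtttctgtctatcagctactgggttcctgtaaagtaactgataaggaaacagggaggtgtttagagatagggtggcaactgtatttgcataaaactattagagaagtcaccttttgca
Il1rl1, second start, chr1:40439379-40439626, + strand: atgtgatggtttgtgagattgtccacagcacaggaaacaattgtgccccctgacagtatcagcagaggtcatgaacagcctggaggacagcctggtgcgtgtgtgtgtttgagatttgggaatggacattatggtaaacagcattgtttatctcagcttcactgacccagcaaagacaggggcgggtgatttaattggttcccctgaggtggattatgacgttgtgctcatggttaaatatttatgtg
Il6, chr5:30012864-30013113, + strand: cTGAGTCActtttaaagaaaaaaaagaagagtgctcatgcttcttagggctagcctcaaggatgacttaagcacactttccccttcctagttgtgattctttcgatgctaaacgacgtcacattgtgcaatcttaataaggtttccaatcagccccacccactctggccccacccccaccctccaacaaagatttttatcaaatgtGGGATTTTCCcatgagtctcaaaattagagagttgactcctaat
Il11, chr7:4778142-4778391, - strand: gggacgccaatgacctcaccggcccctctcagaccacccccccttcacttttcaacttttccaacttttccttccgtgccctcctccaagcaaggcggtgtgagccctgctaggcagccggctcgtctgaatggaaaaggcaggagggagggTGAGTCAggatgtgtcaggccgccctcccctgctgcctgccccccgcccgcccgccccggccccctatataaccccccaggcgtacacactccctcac
Lif, chr11:4257318-4257556, + strand: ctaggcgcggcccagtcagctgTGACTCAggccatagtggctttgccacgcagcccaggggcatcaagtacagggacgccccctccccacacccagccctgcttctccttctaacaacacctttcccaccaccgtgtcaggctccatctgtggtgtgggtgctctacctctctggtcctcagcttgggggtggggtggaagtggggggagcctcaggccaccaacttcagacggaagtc
Cxcl1, chr5:90890995-90891240, + strand: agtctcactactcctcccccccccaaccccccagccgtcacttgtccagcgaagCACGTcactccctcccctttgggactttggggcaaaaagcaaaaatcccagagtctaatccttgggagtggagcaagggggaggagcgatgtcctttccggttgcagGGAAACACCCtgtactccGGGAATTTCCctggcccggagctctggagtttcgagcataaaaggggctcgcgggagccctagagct
Csf1, chr3:107760470-107760719, - strand: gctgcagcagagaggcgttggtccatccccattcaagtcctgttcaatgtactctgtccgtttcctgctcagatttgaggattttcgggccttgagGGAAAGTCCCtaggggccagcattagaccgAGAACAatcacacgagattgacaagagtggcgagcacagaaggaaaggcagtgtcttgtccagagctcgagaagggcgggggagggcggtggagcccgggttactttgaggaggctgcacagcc

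The table of promoters held 8 of the 10 genes, Ccl2 and Ccl7 being the others. Il6 had a kB-type match 44 bases and an AP-1-type match 249 bases before its start. Cxcl1 had 2 kB-type matches, 89 and 71 bases before the start, and a hypoxia-type match at 196 bases. Lif and Il11 each held an AP-1-type match, at 228 and 98 bases. A second annotated Il11 start, which is not shown, had no match to the 4 motifs. Csf1 had a kB-type match at 154 bases and a half-site match at 124 bases. No match to these 4 motifs lay in the windows of Il1rl1, Il33 or Cxcl12. Of 32851 promoters searched over the same length, 1.41% held the kB-type, 6.75% the AP-1-type, 16.6% the hypoxia-type and 16.1% the half-site motif, so the last 2 are common. A match describes letters only.

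Library totals lay between 19869271 and 64693346 counts. Levels are in CPM, counts per 1000000 counts of a library after scaling by edgeR's TMM factors, which assumes that most genes do not change. The 3 hypoxic smooth muscle libraries stood apart, with 11.6% to 13.3% of their counts from mitochondrial ribosomal RNA against 0.0252% to 0.0889% in the other 25 libraries. Their mean TMM factor was 0.518, while the means of the other groups were 0.914 to 1.28. When library size alone was used for scaling, the median log2 fold change of all genes moved from -0.07 to -1.35 against hypoxic proliferating and from -0.12 to -1.49 against normoxic smooth muscle cultures. Directions in this group are therefore given under both scalings where they differ. Replicate 4 also stood apart among normoxic osteoblast libraries: pairs that included it differed by a mean chi-square per gene of 101 to 108, and pairs without it by 3.0 to 4.08. In normoxic proliferating libraries these ranges were 20.05 to 24.53 and 5.51 to 6.2. They were 15.32 to 22.25 and 6.45 to 8.49 in normoxic smooth muscle libraries, and they overlapped in normoxic chondrocyte libraries. Replicate 4 of the normoxic proliferating group lay far outside the range of the other 3 replicates in Il1rl1, Cxcl12, Ccl2 and Csf1, and outside it in Il33, Il11, Cxcl1 and Ccl7 too.

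Il1rl1 was high in proliferating cells and nearly absent from chondrocyte and osteoblast cultures. Smooth muscle cultures lay between these states at 21% O2 and, after TMM scaling, near the proliferating level at 0.5% O2. With library size alone, hypoxic smooth muscle cultures averaged 197 CPM against 509 CPM in hypoxic proliferating ones. The gene (ENSMUSG00000026069) lies on chromosome 1 at 40429570 to 40465415 (+ strand, mm10), with 13 exon blocks in 5 annotated transcripts. In normoxic proliferating libraries its level was 838, 868, 846 and 646 CPM. Normoxic smooth muscle libraries held 66.8, 53.7, 50.3 and 38.8 CPM. Normoxic chondrocyte libraries held 1.94, 3.11, 3.02 and 3.97 CPM, and normoxic osteoblast libraries 0.908, 0.670, 0.712 and 1.19 CPM. The 4 normoxic groups did not overlap at any point of this order.

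At 0.5% O2 the level of Il1rl1 was 449, 429 and 445 CPM in proliferating libraries and 366, 390 and 387 CPM in smooth muscle libraries. Hypoxic osteoblast libraries held 5.92, 5.70 and 7.36 CPM and hypoxic chondrocyte libraries 2.35, 2.05 and 2.30 CPM. From highest to lowest the 8 group means ± SD were 800 ± 103 in normoxic proliferating (n = 4), 441 ± 10.8 in hypoxic proliferating (n = 3), 381 ± 13.3 in hypoxic smooth muscle (n = 3) and 52.4 ± 11.5 CPM in normoxic smooth muscle cultures (n = 4). They continued with 6.33 ± 0.898 in hypoxic osteoblast (n = 3), 3.01 ± 0.83 in normoxic chondrocyte (n = 4), 2.23 ± 0.163 in hypoxic chondrocyte (n = 3) and 0.869 ± 0.235 CPM in normoxic osteoblast cultures (n = 4). The highest mean was 920 times the lowest. Neighbours in this order overlapped in 1 case, normoxic and hypoxic chondrocyte cultures. In bulk RNA, fewer cells with the transcript and less of it per cell cannot be told apart, and counts per gene do not separate the membrane from the soluble form of ST2.

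**Figure D1:**
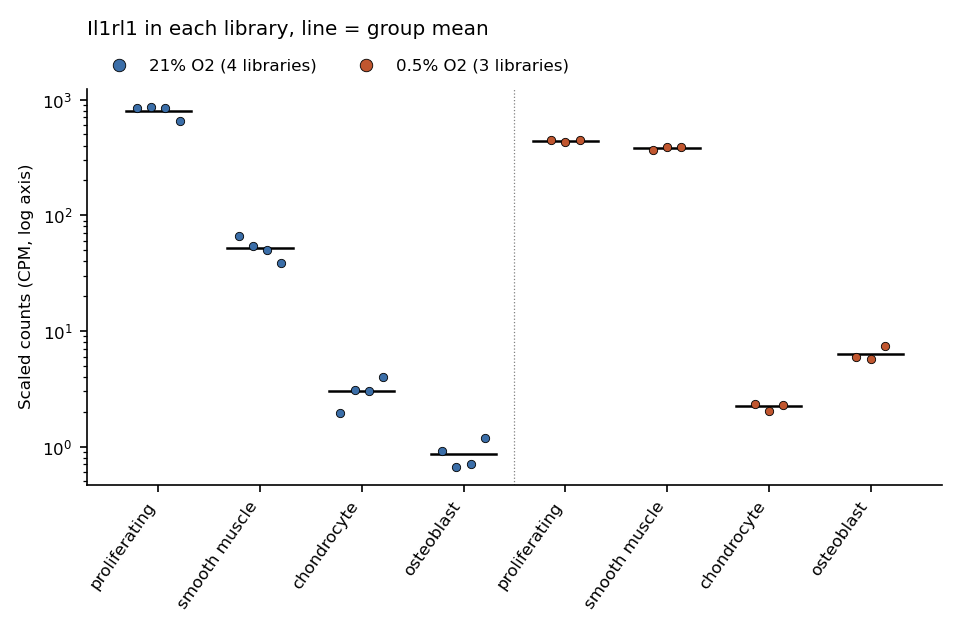
Il1rl1 level in each library (points) and group mean (line), in CPM on a log axis, for the 8 groups. Proliferating and hypoxic smooth muscle libraries lie between 366 and 868 CPM, and chondrocyte and osteoblast libraries at either oxygen level at or below 7.36 CPM.

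The hypoxic comparisons, whose libraries played no part in the choice of Il1rl1, were tested with edgeR's quasi-likelihood test, with Benjamini-Hochberg adjustment over all genes tested. For any of the 10 genes, no p is given in a comparison where it passed the filter on low counts through some of the groups but not through each, since such a gene had to be high in one of them. All 3 differentiated groups were set against the same hypoxic proliferating libraries. The log2 fold change of Il1rl1 was -7.63 in hypoxic chondrocyte cultures (SE 0.0838, edgeR adjusted p = 1.76e-15) and -6.12 in hypoxic osteoblast cultures (SE 0.100, edgeR adjusted p = 2.63e-16). In hypoxic smooth muscle cultures the log2 fold change was -0.09, with a 95% interval of -0.23 to 0.05 (edgeR adjusted p = 0.232), though all 3 libraries lay below the proliferating ones. With no filter on low counts the fall was called (-0.19, edgeR adjusted p = 0.0454). With library size alone it was -1.37 (edgeR adjusted p = 3.54e-09), close to the median of all genes under that scaling. Smooth muscle cultures differed by oxygen: Il1rl1 was higher by 2.93 on the log2 scale at 0.5% than at 21% O2 (SE 0.133, edgeR adjusted p = 3.32e-11), and by 1.55 with library size alone (edgeR adjusted p = 4.2e-08). Chondrocyte cultures gave no call between oxygen levels (log2 fold change -0.43, 95% interval -0.99 to 0.12, edgeR adjusted p = 0.261).

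Marker levels of the cultures stand beside these values. Acta2, the smooth muscle actin gene, was at 3254 CPM in normoxic and 20.9 CPM in hypoxic smooth muscle cultures, against 41.8 CPM in normoxic and 29.4 CPM in hypoxic proliferating cells. Tagln, another smooth muscle marker, was at 293 and 13.1 CPM in the same smooth muscle groups. Hypoxic smooth muscle cultures were thus lower than normoxic ones in both Acta2 and Tagln and higher in Il1rl1. Of the 4 smooth muscle markers, 3 were called lower between these cultures and 0 higher (40.2% and 35.4% of all genes). Against hypoxic proliferating cells 2 were tested, with 1 called higher and 0 lower (33.8% and 36.2% of all genes). With library size alone these 2 were both called lower. Col2a1, the main cartilage collagen gene, was at 3512 CPM in normoxic and 274 CPM in hypoxic chondrocyte cultures, both with little Il1rl1. These marker lists were not particular to their lineage at 21% O2. Against proliferating cells, smooth muscle markers were called higher in chondrocyte (3 of 3 tested), osteoblast (4 of 4) and smooth muscle cultures (4 of 4). Chondrocyte markers were also called higher in osteoblast (4 of 4) and smooth muscle cultures (3 of 4). Of all genes, 37.7%, 40.9% and 40.8% were called higher in chondrocyte, osteoblast and smooth muscle cultures. Osteoblast markers were called higher than in proliferating cells in normoxic (3 of 4 tested) and hypoxic osteoblast cultures (4 of 4, and 36.2% of all genes). They were also called higher in normoxic (5 of 5) and hypoxic chondrocyte cultures (4 of 4, and 34.9% of all genes). In smooth muscle cultures it was 2 of 2 in normoxic and 1 of 1 in hypoxic ones, the latter called lower with library size alone. Of these markers, Ibsp was at 1.13 CPM in normoxic and 69.6 CPM in hypoxic osteoblast cultures but at 1173 CPM in normoxic chondrocyte cultures. Bglap reached at most 0.615 CPM in any group. Sox10, a neural crest marker, had at most 1 count in any group, whereas Twist1 and Prrx1, which mark cranial mesenchyme, were present in all 8. Mast cell markers, of interest because mast cells carry ST2, summed to at most 1.2 CPM in any library, with 5 to 7 of 7 at 0 in each group. T cell markers summed to at most 0.15 CPM, with at least 2 of 3 at 0.

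Il1rl1 lies in a run of 6 receptor genes over 478 kb of chromosome 1, all on the + strand, in the order Il1r2, Il1r1, Il1rl2, Il1rl1, Il18r1 and Il18rap. Their products are receptor chains for interleukins 1, 36, 33 and 18. Its next neighbour Il18r1, the binding chain for interleukin-18, starts 136 bases after the end of Il1rl1 and had at most 5 counts in any group. Il18rap, the accessory chain of the interleukin-18 receptor, starts 14507 bases beyond Il18r1 at 40515362 and had levels of 23.7 ± 3.10 CPM in normoxic (n = 4) and 11.2 ± 1.31 CPM in hypoxic proliferating cultures (n = 3). It was at or below 0.986 CPM in chondrocyte and osteoblast groups at both oxygen levels, at 0.548 CPM in normoxic and at 2.40 CPM in hypoxic smooth muscle cultures. Among hypoxic cultures the log2 fold change of Il18rap against proliferating cells was -4.83 in chondrocyte, -3.51 in osteoblast and -2.11 in smooth muscle conditions, the last being -3.38 with library size alone.

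The other genes of the run had other patterns. Il1r1, the signalling receptor for interleukin-1, stayed between 25.5 and 48.4 CPM in 7 groups and was at 6.46 CPM in hypoxic smooth muscle cultures. Il1r2, an interleukin-1 decoy receptor, was at 2.22 CPM in hypoxic osteoblast cultures and at or below 0.383 CPM elsewhere. Il1rl2, the interleukin-36 receptor, did not exceed 1.45 CPM. Il1rap, the chain that pairs with ST2, ranged from 13.2 CPM in hypoxic chondrocyte to 98.9 CPM in normoxic osteoblast cultures, so it was present where Il1rl1 was nearly absent. The ligand genes Il1a and Il1b had 0 counts in all 28 libraries.

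**Figure D2:**
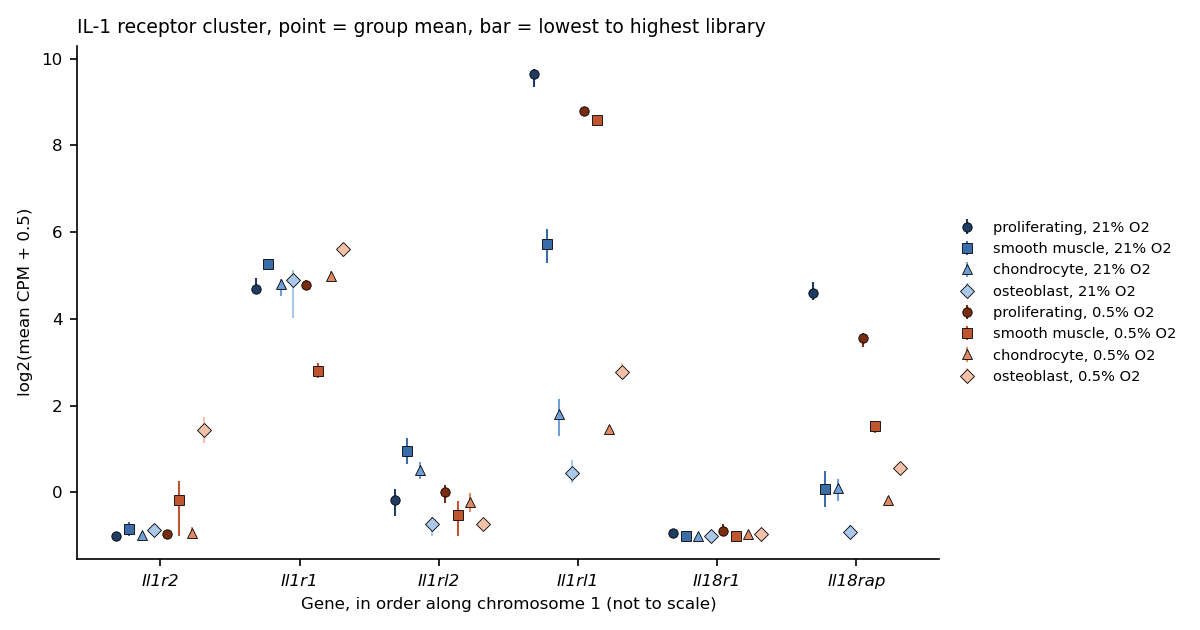
Levels of the 6 receptor genes in their order along chromosome 1, as log2(CPM + 0.5) in the 8 groups; points are means and bars run from the lowest to the highest library. Il1rl1 and Il18rap are highest in proliferating groups, and Il18r1, between them, is near 0 counts in every group.

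By the Pearson correlation of log2(CPM + 0.5) over the 8 group means, taken for 12477 genes, the genes most like Il1rl1 were Tcf3 (r = 0.986), Fmnl1 (r = 0.985), Zfp930 (r = 0.981), Cep89 (r = 0.979) and Nlrc3 (r = 0.978). The 8 points are means of these same libraries, and the order was read only as a description. Fmnl1, a formin that acts on actin filaments, was at 48.5 CPM in normoxic and 26.8 CPM in hypoxic proliferating and at 26.2 CPM in hypoxic smooth muscle cultures. It was at or below 0.432 CPM in the chondrocyte and osteoblast groups. Tcf3, which encodes the E proteins E12 and E47, varied over a smaller range, from 116 to 257 CPM.

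Il33, the gene for the ligand of ST2 (chromosome 19, 29925114 to 29960718, + strand), was low throughout and highest in hypoxic proliferating cells. Its levels there were 7.18, 5.96 and 7.63 CPM, against 0.968, 1.19, 1.29 and 2.03 CPM in normoxic proliferating libraries. The groups did not overlap, and Il33 was higher at 0.5% O2 by 2.42 on the log2 scale (SE 0.224, edgeR adjusted p = 4.23e-07). Il1rl1 went the other way between the same groups, with a log2 fold change of -0.80. Hypoxic osteoblast cultures were lower in Il33 than hypoxic proliferating ones by 2.83 on the log2 scale (edgeR adjusted p = 2e-08), and the log2 fold change in hypoxic smooth muscle cultures was -1.93, and -3.20 with library size alone. Hypoxic chondrocyte libraries held 2 Il33 counts in all against 610 in hypoxic proliferating ones, a ratio of 302 (95% counting interval 83.2 to 2500) in favour of the latter. In normoxic chondrocyte cultures, at 0.332 CPM on 36 counts, the log2 fold change of Il33 against normoxic proliferating ones was -1.98. For normoxic smooth muscle the fall was 0.80 (edgeR adjusted p = 0.0434), and without replicate 4 of the normoxic proliferating group the adjusted p was 0.132.

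Among the interleukin-6 family, Lif was a transcript of proliferating cells and rose at low oxygen, Il11 peaked in hypoxic chondrocyte cultures and Il6 was found mainly in normoxic chondrocyte cultures. Lif lies on chromosome 11 at 4257557 to 4272514 (+ strand), and its product maintains stem cells in culture. Its level was 21.4, 25.4, 26.4 and 24.7 CPM in normoxic proliferating and 60.6, 59.1 and 62.7 CPM in hypoxic proliferating libraries, without overlap. Lif was higher at 0.5% O2 by 1.37 on the log2 scale (SE 0.0708, edgeR adjusted p = 1.5e-09). Every differentiated group was lower than the proliferating one at its oxygen level. At 21% O2 the log2 fold change was -2.38 in chondrocyte (edgeR adjusted p = 1.07e-07) and -4.18 in smooth muscle cultures (edgeR adjusted p = 1.67e-13), and it was -5.58 in osteoblast cultures. At 0.5% O2 it was -4.36 in chondrocyte (edgeR adjusted p = 5.38e-10), -6.47 in osteoblast (edgeR adjusted p = 1.2e-13) and -2.17 in smooth muscle cultures (edgeR adjusted p = 3.16e-06, and -3.44 with library size alone). Hypoxic smooth muscle libraries retained 16.0, 6.98 and 13.9 CPM, all above the normoxic smooth muscle mean of 1.3 CPM (log2 difference 3.31, edgeR adjusted p = 6.55e-08, and 1.95 with library size alone).

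Il11, a cytokine with roles in fibrosis and bone, lies on chromosome 7 at 4772373 to 4782859 (- strand). Hypoxic chondrocyte libraries held 22.4, 30.7 and 30.4 CPM, above hypoxic proliferating libraries at 11.7, 11.7 and 14.2 CPM. Normoxic chondrocyte libraries held 7.59, 4.24, 3.38 and 2.26 CPM around a normoxic proliferating mean of 6.92 CPM. Il11 therefore rose in hypoxic chondrocyte cultures, by 1.14 on the log2 scale (SE 0.136, edgeR adjusted p = 7.81e-06), while the normoxic change was -0.58 (95% interval -1.23 to 0.08, edgeR adjusted p = 0.102). Without replicate 1 of normoxic chondrocyte cultures, the highest of the 4, that change was -0.99 (edgeR adjusted p = 0.00086). Between chondrocyte cultures Il11 was higher at 0.5% O2 by 2.65 (SE 0.368, edgeR adjusted p = 0.00242), and between proliferating cultures by 0.92 (edgeR adjusted p = 7.79e-06). In the other hypoxic lineages Il11 fell, by 4.70 in osteoblast (edgeR adjusted p = 2.36e-11) and by 2.16 in smooth muscle cultures on the log2 scale (edgeR adjusted p = 3.27e-05), the latter log2 fold change being -3.43 with library size alone. Normoxic smooth muscle libraries held 46 counts in all, with a log2 fold change of -4.31.

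Il6 (chromosome 5, 30013114 to 30019981, + strand), the founding cytokine of the family, was scarce. Normoxic chondrocyte libraries held 1.36, 2.22, 2.06 and 2.15 CPM, and normoxic proliferating libraries a mean of 0.219 CPM from 34 counts. The 2 groups did not overlap, and the log2 fold change was 3.25. Hypoxic chondrocyte libraries held 8 counts, all in replicate 3, against 216 in the normoxic ones. The fitted log2 fold change of -4.35 ran from -8.78 to -3.75 when 1 library was left out. Normoxic osteoblast and hypoxic proliferating libraries held 0 counts, which allows 0.0262 and 0.0342 CPM if up to 3 counts over the group were missed. Of the 34 counts in normoxic proliferating libraries, 17 came from replicate 1. All 13 counts of hypoxic smooth muscle cultures came from replicate 1.

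**Figure D3:**
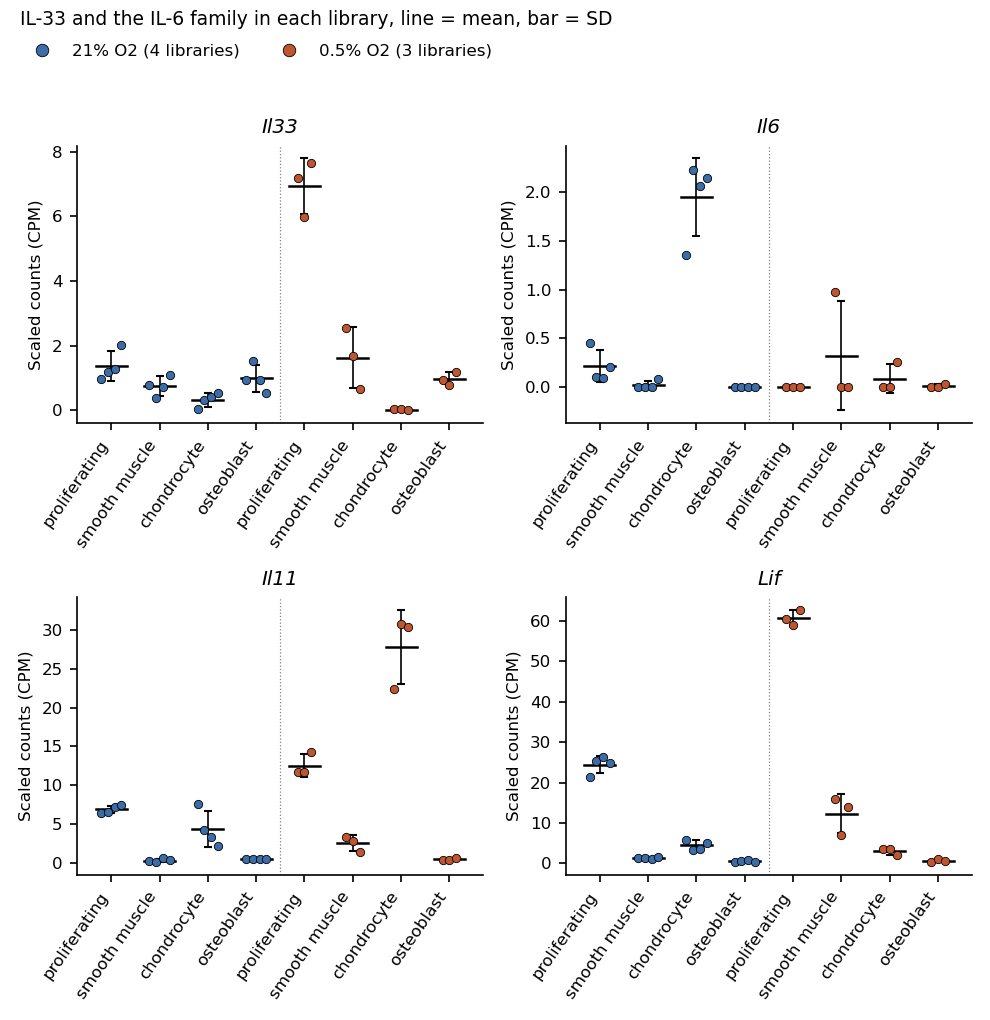
Il33, Il6, Il11 and Lif levels in CPM in each library (points), with the group mean (line) and SD (bar). Il33 and Lif are highest in hypoxic proliferating, Il11 in hypoxic chondrocyte and Il6 in normoxic chondrocyte cultures.

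The chemokine genes moved in different directions. Ccl2 and Ccl7, 8258 bases apart on chromosome 11 (82035571 to 82037453 and 82045712 to 82047525, + strand), encode chemokines that draw monocytes. Ccl2 was at 14.5, 15.1, 15.0 and 27.3 CPM in normoxic proliferating and at 6.57, 6.39 and 5.55 CPM in hypoxic proliferating libraries. It was lower at 0.5% O2 by a log2 fold change of -1.48 (SE 0.255, edgeR adjusted p = 0.000841), and by -1.22 with normoxic replicates 1 to 3 only. Chondrocyte and osteoblast groups held at most 0.376 CPM of Ccl2 on average. The log2 fold change of Ccl2 was -5.89 in normoxic chondrocyte and -4.04 in hypoxic osteoblast cultures, on 32 and 31 counts in those groups. Hypoxic chondrocyte libraries held 1, 0 and 6 counts of Ccl2 against 542 in hypoxic proliferating ones. The fitted log2 fold change of -6.20 there ran from -8.13 to -5.71 when 1 library was left out. Normoxic smooth muscle cultures kept 2.36 ± 0.0914 CPM (n = 4; log2 fold change -2.87, edgeR adjusted p = 4.79e-08). Hypoxic smooth muscle libraries spread over 1.87, 3.59 and 7.13 CPM and were not called against hypoxic proliferating cells (-0.45, edgeR adjusted p = 0.301). They were called lower with library size alone (-1.73, edgeR adjusted p = 0.00131) and without hypoxic smooth muscle replicate 3 (-1.09, edgeR adjusted p = 0.0127). Against normoxic smooth muscle the log2 fold change was 0.88 with TMM (edgeR adjusted p = 0.0443) and -0.49 with library size alone, and without hypoxic replicate 3 the adjusted p was 0.553.

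Ccl7 was at 3.19 ± 0.667 CPM in normoxic (n = 4) and 0.817 ± 0.173 CPM in hypoxic proliferating cultures (n = 3; log2 fold change -1.89, edgeR adjusted p = 2.04e-05). It fell in normoxic smooth muscle cultures by 1.59 on the log2 scale (edgeR adjusted p = 1.31e-05). In normoxic chondrocyte cultures, on 40 counts, the log2 fold change was -3.05. In hypoxic chondrocyte libraries, with 7, 2 and 0 counts, it was -2.94 and ran from -4.34 to -2.35 when 1 library was left out. Osteoblast cultures held 1, 2, 0 and 4 counts of Ccl7 in normoxic libraries and 0.929, 0.928 and 0.634 CPM in hypoxic ones (log2 fold change 3.67). Cxcl1, a neutrophil chemokine, had a log2 fold change of 2.74 between the same osteoblast cultures, at 1.05, 0.618 and 1.06 CPM in hypoxic libraries and at most 0.244 CPM in normoxic ones. Cxcl1 (chromosome 5, 90891241 to 90893115, + strand) was highest in normoxic smooth muscle cultures, at 2.91, 3.54, 3.89 and 1.90 CPM, a log2 fold change of 2.02 against normoxic proliferating cells. Its log2 fold change in hypoxic chondrocyte cultures was -1.43, on 26 counts.

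Cxcl12 (chromosome 6, 117168535 to 117181367, + strand) changed in opposite directions at the 2 oxygen levels in smooth muscle and osteoblast conditions. Normoxic proliferating libraries held 46.0, 47.5, 44.9 and 16.8 CPM and normoxic smooth muscle libraries 522, 556, 569 and 462 CPM. This was a log2 rise of 3.81 (SE 0.331, edgeR adjusted p = 3.02e-05), and of 3.63 with normoxic replicates 1 to 3 only. Hypoxic proliferating libraries held 193, 187 and 180 CPM, above every normoxic proliferating library (log2 fold change 2.31, edgeR adjusted p = 0.00213, and 2.06 with normoxic replicates 1 to 3 only). From that level Cxcl12 fell by 0.89 in hypoxic smooth muscle (edgeR adjusted p = 7.37e-06; the log2 fold change was -2.17 with library size alone), by 1.41 in hypoxic osteoblast (edgeR adjusted p = 2.3e-10) and by 2.53 in hypoxic chondrocyte cultures on the log2 scale (edgeR adjusted p = 6.98e-10). Normoxic osteoblast libraries held 244, 251, 253 and 104 CPM, hypoxic ones 77.8, 65.9 and 67.1 CPM (log2 fold change -1.60, SE 0.30, edgeR adjusted p = 0.00275, and -1.83 with normoxic replicates 1 to 3 only). Normoxic chondrocyte cultures, at 22.9 CPM, were not called against proliferating ones (-0.69, edgeR adjusted p = 0.0541), and without replicate 4 of the latter they were (edgeR adjusted p = 1.09e-06).

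Csf1 (chromosome 3, 107741048 to 107760469, - strand) was present in every group and highest in osteoblast cultures. Its level was 252, 260, 252 and 210 CPM in normoxic proliferating and 446, 450, 452 and 393 CPM in normoxic osteoblast libraries. Hypoxic osteoblast libraries held 671, 652 and 521 CPM, all above the normoxic ones (log2 fold change 0.50, SE 0.108, edgeR adjusted p = 0.00384, and 0.45 with normoxic replicates 1 to 3 only) and above hypoxic proliferating cells at 187 CPM (1.72, SE 0.0919, edgeR adjusted p = 2e-10). Csf1 also rose in hypoxic chondrocyte cultures, by 0.74 (edgeR adjusted p = 2.57e-07), and in normoxic smooth muscle cultures, by 0.63 (edgeR adjusted p = 3.94e-07). Hypoxic smooth muscle cultures held 158 CPM, lower than normoxic ones by 1.14 on the log2 scale (edgeR adjusted p = 1.19e-08), with a log2 fold change of -2.51 with library size alone. Per kilobase of exon, the scale on which genes can be compared, normoxic proliferating cells held 116 CPM per kb of Il1rl1, 46.1 of Csf1, 15.8 of Ccl2, 5.63 of Lif and 4.74 of Cxcl12. Csf1 reached the same 116 CPM per kb in hypoxic osteoblast cultures.

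**Figure D4:**
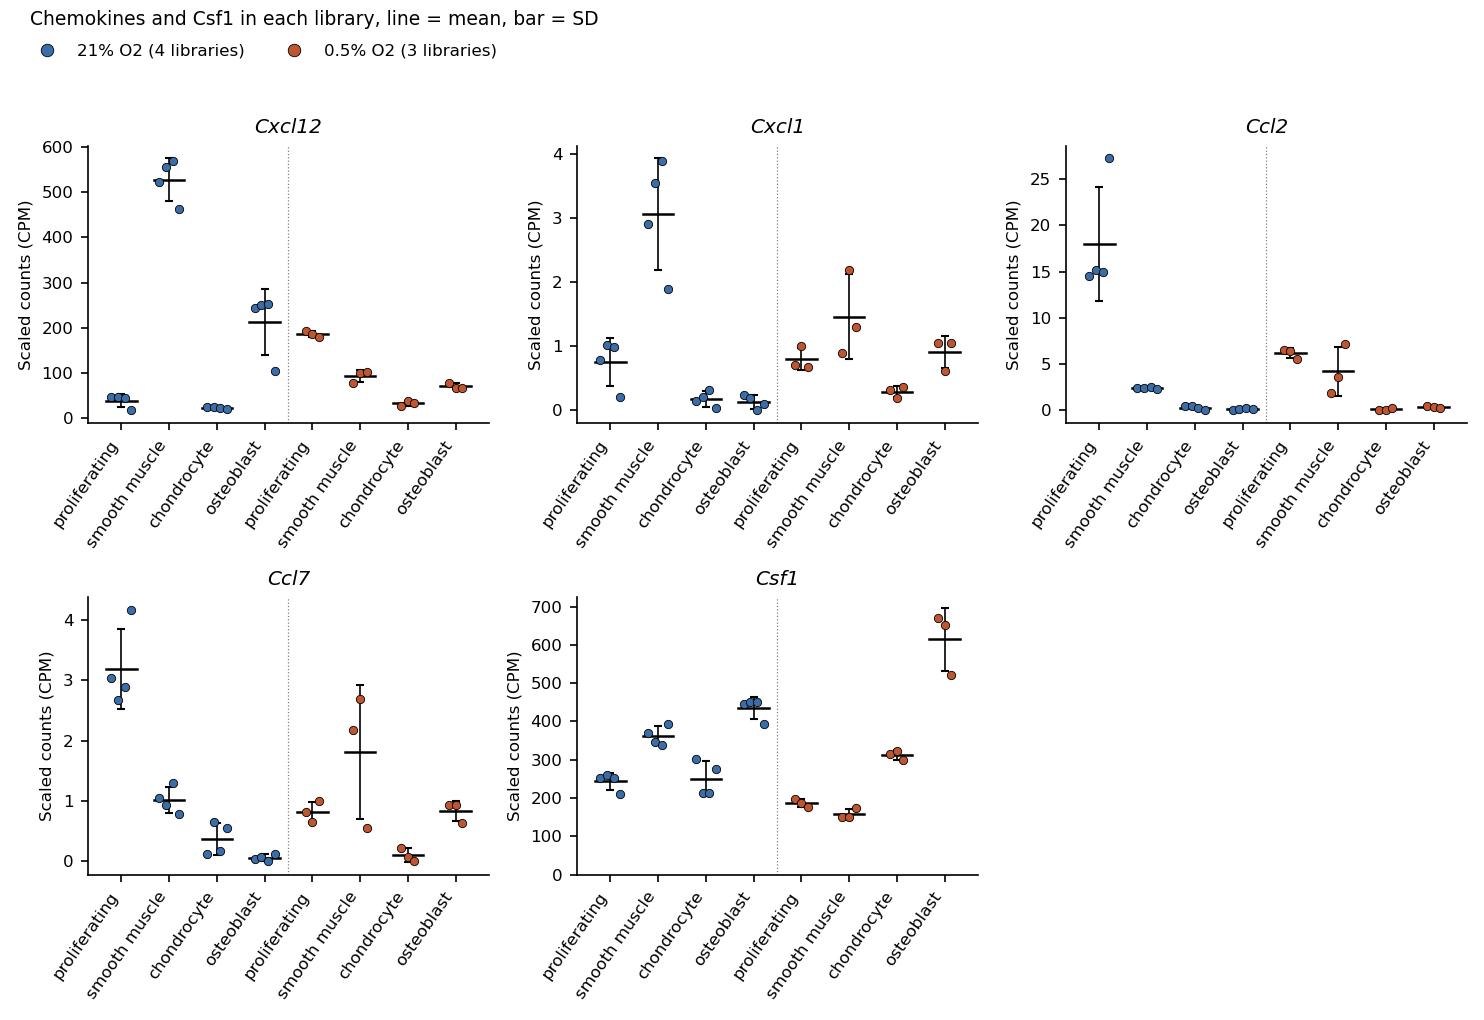
Cxcl12, Cxcl1, Ccl2, Ccl7 and Csf1 levels in CPM in each library (points), with the group mean (line) and SD (bar). Cxcl12 and Cxcl1 are highest in normoxic smooth muscle, Ccl2 and Ccl7 in normoxic proliferating and Csf1 in hypoxic osteoblast cultures.

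Counts over the 10 genes are a description, since the genes were chosen with earlier results known. Il1rl1 is among the genes called lower in each comparison of differentiated with proliferating cultures below except hypoxic smooth muscle, and its normoxic proliferating values took part in its choice. In normoxic chondrocyte cultures 6 of the 9 genes tested were called, 1 higher and 5 lower, where 74.9% of 14360 tested genes were called, 37.7% higher and 37.2% lower. For normoxic smooth muscle it was 9 of 9, 3 higher and 6 lower, where 79.7% of 14582 were, 40.8% higher and 38.9% lower. In normoxic osteoblast cultures 2 of 8 had passed the same threshold as higher and 5 as lower, where 78.7% of genes had, 40.9% higher and 37.8% lower, and nothing is read from that count. At 0.5% O2, 9 of 9 were called in chondrocyte cultures, 2 higher and 7 lower (69.5% of 14347 genes, 34.9% higher and 34.6% lower), and 7 of 9 in osteoblast cultures, 1 higher and 6 lower (71.3% of 14338, 36.2% higher and 35.1% lower). Hypoxic smooth muscle cultures had 4 of 9 called, all 4 lower (70.0% of 14080, 33.8% higher and 36.2% lower), and with library size alone, or with no filter on low counts, the count was 7. Some of these genes passed the filter on low counts through 1 of the groups compared, where they were high. Those that passed it in both groups numbered 5 in normoxic chondrocyte (0 called higher, 2 lower), 7 in normoxic smooth muscle (2 and 5), 5 in hypoxic chondrocyte (2 and 3), 8 in hypoxic osteoblast (1 and 5) and 7 in hypoxic smooth muscle cultures (0 and 3). The genes not tested were Il6 in each hypoxic comparison and in normoxic smooth muscle, Cxcl1 in normoxic chondrocyte, and both in normoxic osteoblast cultures, because of low counts.

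With library size alone, the share of higher genes among all calls moved from 50.3% to 34.7% in normoxic chondrocyte, from 50.2% to 31.8% in hypoxic chondrocyte, from 50.8% to 38.2% in hypoxic osteoblast and from 48.3% to 15.0% in hypoxic smooth muscle cultures. Il11 and Csf1 in hypoxic chondrocyte and Csf1 in hypoxic osteoblast cultures, which passed the filter in both groups, were called as rises under that scaling too. Il6 in normoxic chondrocyte cultures passed the filter through the chondrocyte libraries, where it was high, so its rise is a description under either scaling.

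**Figure D5:**
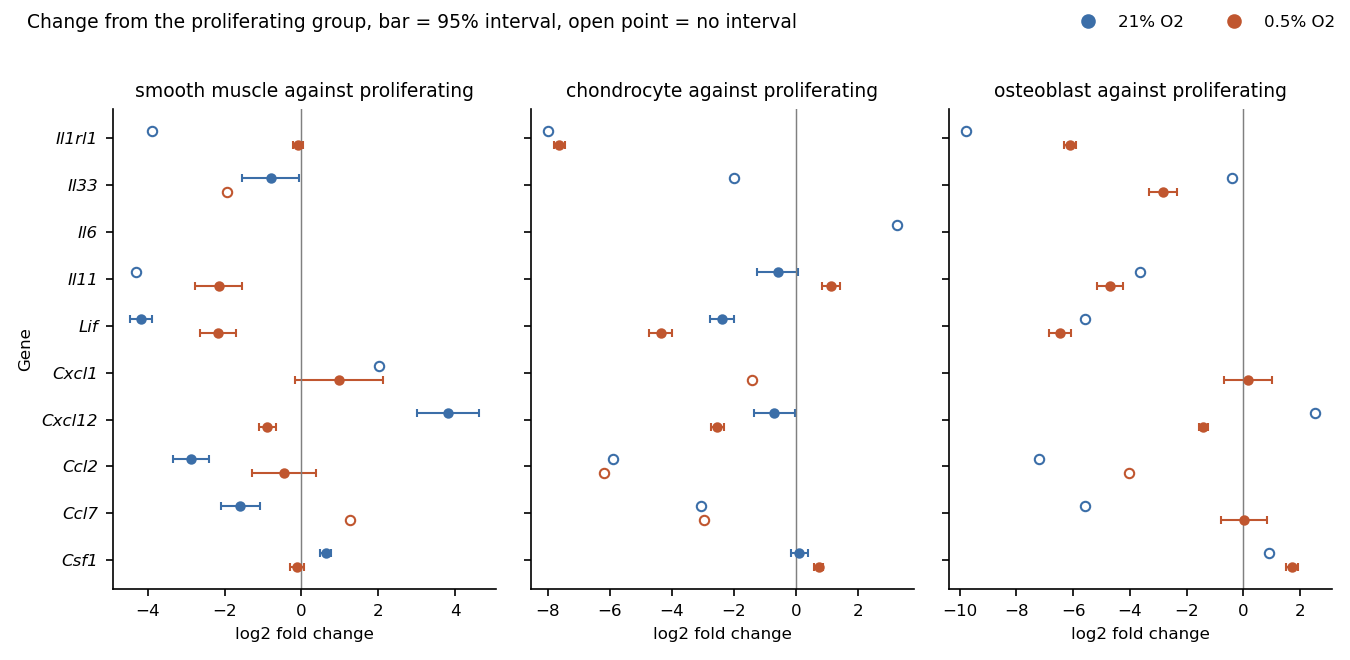
Log2 fold change of each gene in chondrocyte, osteoblast and smooth muscle against proliferating cultures at 21% and 0.5% O2, with 95% intervals; open points carry no interval because no p is given, and pairs with 3 or fewer counts in a group are left out. Il1rl1, Lif and Ccl2 lie below 0 in every panel, and Csf1 lies above 0 in all but hypoxic smooth muscle, though in normoxic chondrocyte cultures it was -0.22 with library size alone.

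Between oxygen levels, 8 of the 9 genes tested were called in proliferating cultures, 4 higher at 0.5% O2 (Il33, Il11, Lif and Cxcl12) and 4 lower (Il1rl1, which is given no p, Ccl2, Ccl7 and Csf1). Of 14156 genes, 65.4% were called there, 33.1% higher and 32.3% lower. Chondrocyte cultures had 3 of 6 called, 2 higher (Il11 and Cxcl12) and 1 lower (Il6, on the 8 counts given above), where 22.2% of 14205 genes were called, 10.4% higher and 11.8% lower. The Cxcl12 call (log2 fold change 0.50, edgeR adjusted p = 0.0114) was lost in 1 fit to all 8 groups (edgeR adjusted p = 0.237) and without hypoxic chondrocyte replicate 2 (edgeR adjusted p = 0.0607). Osteoblast cultures had 5 of 8 called, 4 higher and 1 lower, where 54.3% of 14533 were, 27.0% higher and 27.3% lower. Cxcl12 was the gene called lower in osteoblast cultures. Of the 4 higher there, Ccl7 and Cxcl1 passed the filter through the hypoxic libraries, and Il1rl1, chosen for its low normoxic osteoblast values, is given no p. Smooth muscle cultures had 7 of 9 called, 4 higher and 3 lower (75.6% of 14914, 35.4% higher and 40.2% lower), with Cxcl1, Cxcl12 and Csf1 lower; of the 4 higher, Il11 passed the filter through the hypoxic libraries and Ccl2 changed sign with library size alone. Those that passed in both groups numbered 6, with 3 called higher and 3 lower. The Cxcl1 call (-1.02, edgeR adjusted p = 0.0285) was lost in the fit to all 8 groups (edgeR adjusted p = 0.0525) and without normoxic replicate 2 or 3 or hypoxic replicate 1 or 3 (edgeR adjusted p = 0.0626 to 0.0905). Leaving library size unadjusted by TMM moved the share of higher genes among all calls from 46.9% to 31.8% in chondrocyte, from 49.6% to 36.9% in osteoblast and from 46.8% to 15.6% in smooth muscle cultures.

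Whether a change from the proliferating state differed with oxygen was tested as an interaction, the hypoxic log2 change minus the normoxic one. For chondrocyte cultures 5 of 10 genes were called, 2 higher and 3 lower, where 43.5% of 15310 genes were, 21.6% higher and 21.9% lower. Il11 (1.74, SE 0.381, edgeR adjusted p = 0.00205) and Csf1 (0.65, edgeR adjusted p = 0.00261) changed more towards higher levels at 0.5% O2. Lif (-1.95, edgeR adjusted p = 2.16e-05) and Cxcl12 (-1.81, edgeR adjusted p = 0.00307) changed more towards lower levels. Il33 was the third gene called lower, on the 2 counts given above, and 5 of the 10 genes, with 2 higher and 2 lower, passed the filter in all 4 groups. For osteoblast cultures 9 of 9 were called, 5 higher and 4 lower, where 54.2% of 15486 were, 28.9% higher and 25.3% lower. This difference contains the normoxic osteoblast change used in the choice, so nothing is read from that count. The difference of Cxcl12 was -3.88. That of Ccl7 was 5.62, with 7 counts in the normoxic osteoblast libraries. The hypoxic minus normoxic difference of Il1rl1 was 3.69 on the log2 scale.

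Smooth muscle cultures had 7 of 9 genes called, 5 higher and 2 lower, where 70.4% of 15640 were, 34.9% higher and 35.5% lower, Il1rl1 again being among the 5. Those that passed the filter in all 4 groups numbered 6, with 3 higher and 2 lower. The share of higher genes among all calls there moved from 49.6% to 16.6% with library size alone. The Cxcl12 difference was -4.72 (SE 0.402, edgeR adjusted p = 6.87e-07) and that of Csf1 -0.77 (edgeR adjusted p = 2.43e-06), the latter being -2.11 with library size alone. Lif (1.99, edgeR adjusted p = 6.02e-07) fell less at 0.5% O2, with a difference of 0.66 with library size alone (edgeR adjusted p = 0.0311). The Il11 difference was 2.13, and 0.80 with library size alone, where it was no longer called. For Il1rl1 the difference was 3.77, and 2.43 with library size alone.

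While the ligand Lif was low in differentiated cultures, Osmr and Lifr, receptor genes of the same family, were higher in several of them. Osmr, the oncostatin M receptor, was at 3.64 CPM in normoxic and 3.78 CPM in hypoxic proliferating cells, at 42.2, 46.6 and 76.7 CPM in normoxic and at 31.4, 19.8 and 10.6 CPM in hypoxic chondrocyte, osteoblast and smooth muscle cultures. Lifr, the receptor for LIF, rose from 7.24 to 60.7 CPM in normoxic chondrocyte and from 7.72 to 83.2 CPM in hypoxic osteoblast cultures (edgeR adjusted p = 8.71e-10 and 7.19e-13). Il11ra1, the receptor for interleukin-11, was at 8.49 CPM in normoxic proliferating and 82.8 CPM in normoxic smooth muscle cultures. In hypoxic chondrocyte cultures, where Il11 peaked, Il11ra1 was at 8.75 CPM and had fallen by 0.61 on the log2 scale (edgeR adjusted p = 0.00158). Il6st, which encodes gp130, was between 133 and 469 CPM in all 8 groups.

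Of the 15 other family genes listed, 7 of 12 tested were called higher and 3 lower in normoxic chondrocyte cultures, with a median log2 fold change of 0.95. In normoxic smooth muscle cultures it was 9 of 11 higher and 2 lower, with a median of 2.28 against 0.03. Hypoxic osteoblast cultures had 10 of 12 higher and 2 lower, with a median of 0.96. Hypoxic chondrocyte cultures had 6 of 11 higher and 4 lower, and hypoxic smooth muscle cultures 7 of 11 higher and 2 lower, which became 2 higher and 6 lower with library size alone. Over these 5 comparisons 33.8% to 40.8% of all genes tested were called higher and 34.6% to 38.9% lower, as given for each above. Of the 16 genes of the interleukin-1 and interleukin-33 axis, 6 of 11 were higher and 3 lower in normoxic chondrocyte, 8 of 11 and 3 in normoxic smooth muscle, 4 of 11 and 5 in hypoxic chondrocyte, and 6 of 12 and 5 in hypoxic osteoblast cultures. In the same order, these counts were 4 and 3, 8 and 3, 3 and 5, and 5 and 5 with library size alone. Hypoxic smooth muscle cultures had 1 of 10 higher and 5 lower, and 0 higher and 8 lower with library size alone. Irak3, an inhibitor of signalling by this receptor family, was among the rises, from 0.134 to 2.90 CPM in normoxic smooth muscle cultures.

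Of 25 other chemokines and chemokine receptors, 5 to 10 had enough counts for a test in the comparisons with proliferating cultures. Ackr4, which encodes a scavenging receptor that removes chemokines, was at 0.131 CPM in normoxic and 0.0679 CPM in hypoxic proliferating cells and at 153 CPM in normoxic and 22.4 CPM in hypoxic osteoblast cultures. Between osteoblast cultures it was lower at 0.5% O2 by 2.77 on the log2 scale (edgeR adjusted p = 0.000812). Ackr3, the scavenging receptor for CXCL12, was at 48.7 CPM in normoxic and 197 CPM in hypoxic proliferating cells, a log2 rise of 2.07 (SE 0.0536, edgeR adjusted p = 1.33e-12) beside that of Cxcl12. Cxcr4, the signalling receptor for CXCL12, did not exceed 4.45 CPM in any group. Cxcl10 and Ccl5, both inducible chemokines, had 0 counts in chondrocyte and osteoblast cultures at both oxygen levels, and Ccl5 was at 7.74 CPM in hypoxic smooth muscle cultures. Csf1r, the receptor for CSF1, was at or below 1.94 CPM in every group. Il34, the other ligand of that receptor, was at 19.7 CPM in normoxic and 33.8 CPM in hypoxic proliferating cells and fell in hypoxic osteoblast cultures by 1.60 on the log2 scale (edgeR adjusted p = 2.16e-09), where Csf1 rose.

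NF-kB signalling is the route from ST2 to many of these cytokines. Of 18 of its genes tested, 3 were called higher and 11 lower in normoxic chondrocyte cultures, where 37.7% of all genes were called higher and 37.2% lower. It was 3 and 12 in hypoxic chondrocyte (34.9% and 34.6% of all genes) and 5 and 9 in hypoxic osteoblast cultures (36.2% and 35.1%). With library size alone these counts were 1 and 12, 1 and 14, and 3 and 12. Median log2 fold changes were -0.47, -0.62 and -0.29, where the medians of all genes were -0.0029, -0.021 and 0.0010. Smooth muscle cultures had 6 higher and 8 lower at 21% O2 (40.8% and 38.9% of all genes) and 5 higher and 10 lower at 0.5% O2 (33.8% and 36.2%). With library size alone these became 9 and 8 at 21% O2 and 1 and 14 at 0.5% O2. Traf1, an NF-kB target, was at 5.89 CPM in normoxic proliferating and at or below 0.470 CPM in the other normoxic groups. Vcam1, an adhesion molecule gene, fell in hypoxic chondrocyte cultures by 4.10 on the log2 scale (edgeR adjusted p = 4.42e-10). Nfkbia, which encodes the inhibitor IkB-alpha, rose to 277 CPM in hypoxic osteoblast cultures from 26.3 CPM (log2 fold change 3.39, edgeR adjusted p = 6.6e-11).

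Dexamethasone is an ingredient of the media of those lineages. Of 11 genes of the glucocorticoid receptor and its targets, 11 were called higher in hypoxic osteoblast against hypoxic proliferating cultures (median 3.22), where 36.2% of all genes were. It was 7 higher and 2 lower in normoxic chondrocyte (37.7% and 37.2% of all genes) and 5 higher and 5 lower in hypoxic chondrocyte cultures (34.9% and 34.6%). Genes of this list were also called higher between groups whose described media do not include dexamethasone. At 0.5% against 21% O2, 7 of 10 were higher and 1 lower in proliferating cultures (33.1% and 32.3% of all genes). In smooth muscle cultures it was 7 of 10 higher and 2 lower (35.4% and 40.2%), and 4 higher and 5 lower with library size alone. Between oxygen levels with dexamethasone in both media, it was 11 of 11 higher in osteoblast cultures (27.0% of all genes). In chondrocyte cultures it was 1 of 11 higher and 0 lower (10.4% and 11.8%). Tsc22d3, the gene of the glucocorticoid-induced leucine zipper, was at 42.9 CPM in hypoxic proliferating and 1877 CPM in hypoxic osteoblast cultures. Their part in the cytokine and chemokine changes was not tested. Beside the oxygen labels, 10 of 10 hypoxia response genes were called higher at 0.5% O2 in proliferating (33.1% of all genes), osteoblast (27.0%) and smooth muscle cultures (35.4%) and 8 of 10 in chondrocyte cultures (10.4%). The same list was also higher in normoxic chondrocyte against normoxic proliferating cultures, both at 21% O2, with 10 of 10 called (37.7% of all genes) and a median log2 fold change of 2.04.

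Macrophages produce several of these cytokines and carry Csf1r. Their 8 markers summed to 9.74 to 15.1 CPM per library in the proliferating groups, to 1.51 to 3.84 CPM in chondrocyte, osteoblast and normoxic smooth muscle cultures and to 37.1 to 42.9 CPM in hypoxic smooth muscle cultures. Cd14 and Cd68 were called lower together with Ccl2 and Lif, in normoxic chondrocyte cultures by 2.79 and 1.87 on the log2 scale (edgeR adjusted p = 4.19e-08 and 0.000664). Between 2 and 5 of the 8 markers, Itgam and Tyrobp in each case, had 0 counts in every group, and the part of the others in the falls of Ccl2, Lif and Il1rl1 was not tested. In hypoxic smooth muscle cultures the sum came mainly from Cd68 (35.0 CPM), while 5 of the 8, Adgre1, Itgam, Lyz2, Tyrobp and Fcer1g, had 0 counts. Endothelial markers summed to at most 7.62 CPM. The pattern of Ccl2 over the 8 group means was most like that of Gpd2 (r = 0.991), Nlrc3 (r = 0.9903), Ahcy (r = 0.988), Suclg2 (r = 0.986) and Arhgap18 (r = 0.983). Nlrc3, an inhibitor of NF-kB signalling, was also on the list for Il1rl1 and was at 21.5 CPM in normoxic proliferating, 12.8 CPM in hypoxic proliferating and 7.28 CPM in hypoxic smooth muscle cultures, with at most 3.24 CPM in the other groups.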

How the data were processed

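Whole-number read counts per gene were deposited by the authors for 28 libraries. Per the submitters' processing notes, HISAT2 2.0.5, StringTie 1.3.3b and featureCounts 1.5.0-p3 were used with mm10; the strand setting of the counting is not given in the sources used here. A further 10 tables of comparisons, with 70 columns of per-library values, were not used. Gene positions are from GENCODE M21; 54314 of 54429 identifiers matched a symbol (99.79%). Each comparison was fitted to its own groups in edgeR 4.0.16 (R 4.3.3, limma 3.58.1, statmod 1.5.0) with TMM scaling, its filter on low counts (minimum 10), robust dispersion and the quasi-likelihood test, two-sided, with Benjamini-Hochberg adjustment over all genes and a threshold of 0.05. Intervals on fold changes use edgeR's residual degrees of freedom; those on ratios of few counts cover counting error only. The fit was tested on simulated counts in which few genes changed and no library stood apart. That test does not cover conditions such as those of these libraries.

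The genes, the lists and the markers were chosen with earlier results of these data known. The rule was to name all 10 genes in every comparison, and those without a value of their own in one stand in its counts. From each list at most the 3 called genes with the largest change per comparison were to be named. Marker genes, neighbours of Il1rl1, Il6st, Il1rap, Il11ra1, Csf1r, Cxcr4 and other genes outside that rule were named for their role after their values were seen. That no p is given for a gene passing the filter through some of the groups compared was decided after the values were seen. Same-numbered residuals correlated between -0.143 and 0.12, and in 0 of 10 comparisons did all pairs exceed 0.1. The libraries were therefore treated as unpaired, though with 3 or 4 libraries a group a shared culture or batch could be missed. Alternatives were DESeq2 1.42.0, limma-voom, other scalings and filters, 1 fit to all groups, a replicate block, leaving out each library, and, added after seeing the data, normoxic replicates 1 to 3 only.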

Additional observations from a re-analysis of the deposited data

Results flagged for a closer look

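In groups of 4 libraries, 7 of 40 sets of values had a replicate far from the other 3, and in every case it was replicate 4. Chance flags about 1 in 20 independent sets, but these sets share libraries, so the number is not set against that rate. Normoxic proliferating replicate 4 held 646 CPM of Il1rl1 (others 838 to 868), 16.8 of Cxcl12 (44.9 to 47.5), 27.3 of Ccl2 (14.5 to 15.1) and 210.03 of Csf1 (252 to 260). Normoxic osteoblast replicate 4 held 104 CPM of Cxcl12 (others 244 to 253) and 393 of Csf1 (446 to 452). Normoxic smooth muscle replicate 4 held 0.0875 CPM of Il6, from 3 counts, and the others 0.

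The following 19 changes from the proliferating state differed between oxygen levels by the threshold of the fit; values are the hypoxic minus the normoxic log2 change. Il33 in chondrocyte, Cxcl1, Ccl2 and Ccl7 in osteoblast, and Il11 and Ccl7 in smooth muscle cultures passed the filter on low counts through some of the groups, and their values are a description. In chondrocyte cultures these were Il11 at 1.74, Lif at -1.95, Cxcl12 at -1.81, Csf1 at 0.65 and Il33 at -6.01. The Il33 value depends on the prior count of the fit, since hypoxic chondrocyte libraries held 2 counts in all. Against normoxic chondrocyte cultures the Il33 ratio was 13.9 in favour of the latter (95% counting interval 3.57 to 119). The osteoblast differences contain the comparison used in the choice of the genes and are a description. They were Il33 at -2.38, Il11 at -1.001, Lif at -0.85, Cxcl1 at 2.66, Cxcl12 at -3.88, Ccl2 at 3.21, Ccl7 at 5.62 and Csf1 at 0.87. The Lif value passed the threshold in only 9 of 23 alternatives and ran from -1.35 to -0.57 when 1 library was left out. In smooth muscle cultures they were Il11 at 2.13, Lif at 1.99, Cxcl12 at -4.72, Ccl2 at 2.39, Ccl7 at 2.83 and Csf1 at -0.77. With library size alone these were Il11 at 0.80, Lif at 0.66, Cxcl12 at -6.06, Ccl2 at 1.05, Ccl7 at 1.498 and Csf1 at -2.11. The smooth muscle values include the hypoxic libraries with a high share of mitochondrial ribosomal RNA, and the part of that share in them was not tested.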

How the results depend on the processing

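For 113 results on single genes, 1831 of 1942 values under alternatives kept their direction and their side of the threshold; 40 lost a call, 39 gained one and 32 changed sign. With library size alone, log2 values changed sign for Ccl7 (-0.21) and Cxcl1 (-0.057) in hypoxic osteoblast and for Ccl7 (-0.012) and Cxcl1 (-0.31) in hypoxic smooth muscle against hypoxic proliferating cultures. They also did for Ccl2 (-0.49), Ccl7 (-0.48) and Il33 (-0.16) between smooth muscle cultures and for Csf1 (-0.22) in normoxic chondrocyte cultures. With limma-voom they did for Il33 between osteoblast cultures (0.067) and for the chondrocyte differences of Ccl7 (-0.25) and Il6 (-2.03). With normoxic replicates 1 to 3 only they did for Cxcl1 between proliferating cultures (-0.18) and Il33 in normoxic osteoblast cultures (0.0031). Leaving out each library gave -0.12 to 0.19 for Ccl7 in hypoxic osteoblast against proliferating, -0.23 to 0.26 for Il33 and -0.029 to 0.74 for Lif between osteoblast cultures, -0.18 to 0.31 for Cxcl1 between proliferating cultures, and -2.25 to 0.20, -1.29 to 0.73 and -3.21 to 2.03 for the chondrocyte differences of Ccl2, Ccl7 and Il6. Among the results in these sentences, Ccl2 between smooth muscle cultures was the one called with TMM and all libraries. When every library had to hold 10 counts, fewer genes were tested, and the number called was 2 in normoxic chondrocyte, 5 in hypoxic chondrocyte and 3 between osteoblast cultures. In hypoxic smooth muscle against proliferating cultures it was 7 with library size alone and 7 with no filter, and leaving out each library gave 4 to 7, the latter without hypoxic smooth muscle replicate 3; the cause was not tested. Between chondrocyte cultures, leaving out each library gave 2091 to 3359 called genes, the lowest without hypoxic chondrocyte replicate 3, where 3157 were called with all libraries. The replicate block kept 109 of 113 results; among the others, Ccl2 between smooth muscle cultures lost its call (0.68, adjusted p = 0.201), Cxcl12 in normoxic chondrocyte cultures gained one (-0.60, adjusted p = 0.0364) and Cxcl1 between proliferating cultures changed sign (-0.17). The call of Il33 in normoxic smooth muscle cultures lay close to the threshold. One fit to all 8 groups lost that call and those of Cxcl12 between chondrocyte cultures and Cxcl1 between smooth muscle cultures. It also lost the calls of Il11 and Lif among the osteoblast differences. Levels of Il6, Cxcl1, Ccl2, Ccl7, Il33 and Il11 rest on fewer than 50 counts in at least 2 groups each, which limits their precision.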
